A study of Mus musculus with 24 samples.

Results

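The genes described here are 9 that act when DNA is broken or its replication stalls: *Atm*, *Atr*, *Chek1*, *Chek2*, *Brca1*, *Brca2*, *Fancd2*, *Blm* and *H2afx*. They were chosen by symbol for their role, though earlier results of these data were known. The table they come from holds 54658 genes as normalized read counts (reads per gene divided by 1 size factor per library). All 9 were found and passed the filter on low values in every comparison. The table holds 24 libraries of mouse embryos in 8 groups of 3. Mutants carried a small deletion in both copies of *Cep135*, a centriole protein gene whose loss causes a small brain (labelled *Cep135* (-/-), made by CRISPR in B6.CBA zygotes and kept on C57BL/6J), and controls were *Cep135* (+/+). Each genotype was sampled as E11.5 cortex, E14.5 cortex, and cells of E14.5 cortex cultured for 12 or 24 hours in suspension with EGF and FGF2 to form neurospheres. The same 6 E14.5 embryos gave the cortex, 12-hour and 24-hour libraries, while the E11.5 cortices came from 6 other embryos. The deletion was in every cell of the embryo, and all E14.5 embryos shared 1 prefix in their labels (read here as a litter), whereas the E11.5 embryos had 2 other prefixes.

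Cells answer damaged DNA with a relay of kinases. ATM is switched on by double-strand breaks and ATR by stretches of single-stranded DNA at stalled forks; they pass the signal to the kinases CHK2 and CHK1, which hold the cell cycle and, through p53, can lead to death of the cell. BRCA1 and BRCA2 carry out repair by homologous recombination, FANCD2 is the protein that the Fanconi anemia pathway loads onto crosslinked DNA, the helicase BLM undoes joined DNA molecules, and H2AX is the histone that is phosphorylated around a break. Many of these genes are transcribed mainly in S and G2 phase, and embryonic cortex holds both dividing radial glia, which line the ventricle, and neurons, which have left the cell cycle. ATM, ATR and H2AX act through phosphorylation, which RNA levels do not show.

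The libraries held 4732781 to 11645213 reads on genes. Behind single values lay 367 to 1063 reads for *Atm*, 223 to 3285 for *H2afx* and 13 to 162 for *Chek2*, the gene with the fewest. Reads came from the 3′ ends of transcripts, so they check neither the coding sequence nor splicing, and they cannot check the *Cep135* deletion, which lies near the other end of the transcript: *Cep135* had 246 to 336 normalized reads in E11.5 mutants and 293 to 375 in E11.5 controls. In whole tissue, fewer cells of a type and less RNA per cell cannot be told apart. The 8 markers of radial glia and the 8 of neurons were present in every group, the radial glia sum being 8214 to 18131 normalized reads over the 24 libraries. Embryos are the replicates, and genotype comparisons rest on 3 against 3.

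The promoters are given as a description, and their part in the changes with age (below) was not tested. RefSeq windows of build GRCm38.p6, from 250 bases before to 50 bases after the start of transcription, were found for 7 of the 9 genes, all but *Fancd2* and *H2afx*. They were searched on both strands for the binding words of E2F, the factor that switches on S-phase genes (TTTCCCGC, TTTCGCGC, TTTGCCGC or TTTGGCGC), for their 7-letter core without the first T, for the cell cycle element TTTGAA and for the box CCAAT. The 7-letter search was added after the windows had been read, and the E2F words contain the core. The 8-letter words were found in 2 of the 7 windows, *Brca2* and *Chek2*, and in 2.26% of 32851 promoters in the table. The core was found in 6 of the 7 and in 9.57% of all promoters, CCAAT in 4 and in 37.4%, and TTTGAA in 0 and in 17.9%. Capitals mark the core on either strand. The first 4 windows below belong to the genes with the largest fall with age among the 7. The last belongs to *Atr*, whose change with age did not pass the test.
*Chek1*, minus strand, chr9:36726609-36726908: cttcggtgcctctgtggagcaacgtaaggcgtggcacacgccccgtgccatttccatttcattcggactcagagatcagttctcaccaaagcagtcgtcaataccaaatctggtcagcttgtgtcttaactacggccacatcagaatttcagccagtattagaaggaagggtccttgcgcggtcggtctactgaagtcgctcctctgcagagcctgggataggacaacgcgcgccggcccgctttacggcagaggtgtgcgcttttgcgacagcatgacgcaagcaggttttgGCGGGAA
*Brca2*, plus strand, chr5:150522371-150522670: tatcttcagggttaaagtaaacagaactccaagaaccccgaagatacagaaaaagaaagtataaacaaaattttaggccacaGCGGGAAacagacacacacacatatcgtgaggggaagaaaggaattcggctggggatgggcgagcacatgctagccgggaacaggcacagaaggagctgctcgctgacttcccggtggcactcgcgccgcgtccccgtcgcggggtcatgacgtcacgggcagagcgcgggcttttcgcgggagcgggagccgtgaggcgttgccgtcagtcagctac
*Brca1*, minus strand, chr11:101551906-101552205: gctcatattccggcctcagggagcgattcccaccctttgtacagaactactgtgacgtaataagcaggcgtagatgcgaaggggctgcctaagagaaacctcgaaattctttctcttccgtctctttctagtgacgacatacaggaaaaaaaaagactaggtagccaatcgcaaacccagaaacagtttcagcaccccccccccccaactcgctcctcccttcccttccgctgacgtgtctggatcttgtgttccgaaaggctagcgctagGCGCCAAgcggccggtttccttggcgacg
*Blm*, minus strand, chr7:80534949-80535248: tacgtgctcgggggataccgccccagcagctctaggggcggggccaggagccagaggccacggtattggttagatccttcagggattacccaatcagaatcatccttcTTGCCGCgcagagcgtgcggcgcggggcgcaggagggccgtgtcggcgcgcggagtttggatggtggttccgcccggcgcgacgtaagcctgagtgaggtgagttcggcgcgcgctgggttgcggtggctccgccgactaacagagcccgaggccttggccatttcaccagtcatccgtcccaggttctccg
*Atr*, plus strand, chr9:95857347-95857646: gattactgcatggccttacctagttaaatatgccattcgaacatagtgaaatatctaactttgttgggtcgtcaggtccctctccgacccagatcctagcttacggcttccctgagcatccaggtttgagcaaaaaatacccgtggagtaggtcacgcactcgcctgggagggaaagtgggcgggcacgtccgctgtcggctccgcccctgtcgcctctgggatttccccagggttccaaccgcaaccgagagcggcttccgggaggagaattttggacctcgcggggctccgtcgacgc
Counted from the RefSeq start, the core begins at base 44 in *Chek1* and at base 22 in *Brca1*. The *Chek1* core ends with the last base of its window, so the 8-letter word could not be scored there. In *Brca2* it begins 168 and in *Blm* 142 bases before that start. The gene spans given below come from another annotation, GENCODE, and can start elsewhere. The *Chek1* window lies wholly within its GENCODE span. The *Atr* window holds none of the words searched. The *Atm* window, not printed, holds the core and CCAAT, and *Atm* changed with age by -0.33, close to the -0.30 of *Atr*. Such matches are letters in a window and show no binding.

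The first question was how the genes change as the cortex matures. Between E11.5 and E14.5, 8 of the 9 genes fell, by 0.33 to 1.17 on the log2 scale, and *Atr*, whose change was -0.30, did not pass the test. The median change was -0.88, against -0.08 over all genes tested. Over all genes, 53.1% changed in either direction and 29.3% fell, so a fall was common between these ages. In 5 of the 9 genes the 6 values at each age did not overlap, which held for 30.5% of all genes. The 2 ages came from different litters, and age and litter cannot be told apart.

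**Figure D1:**
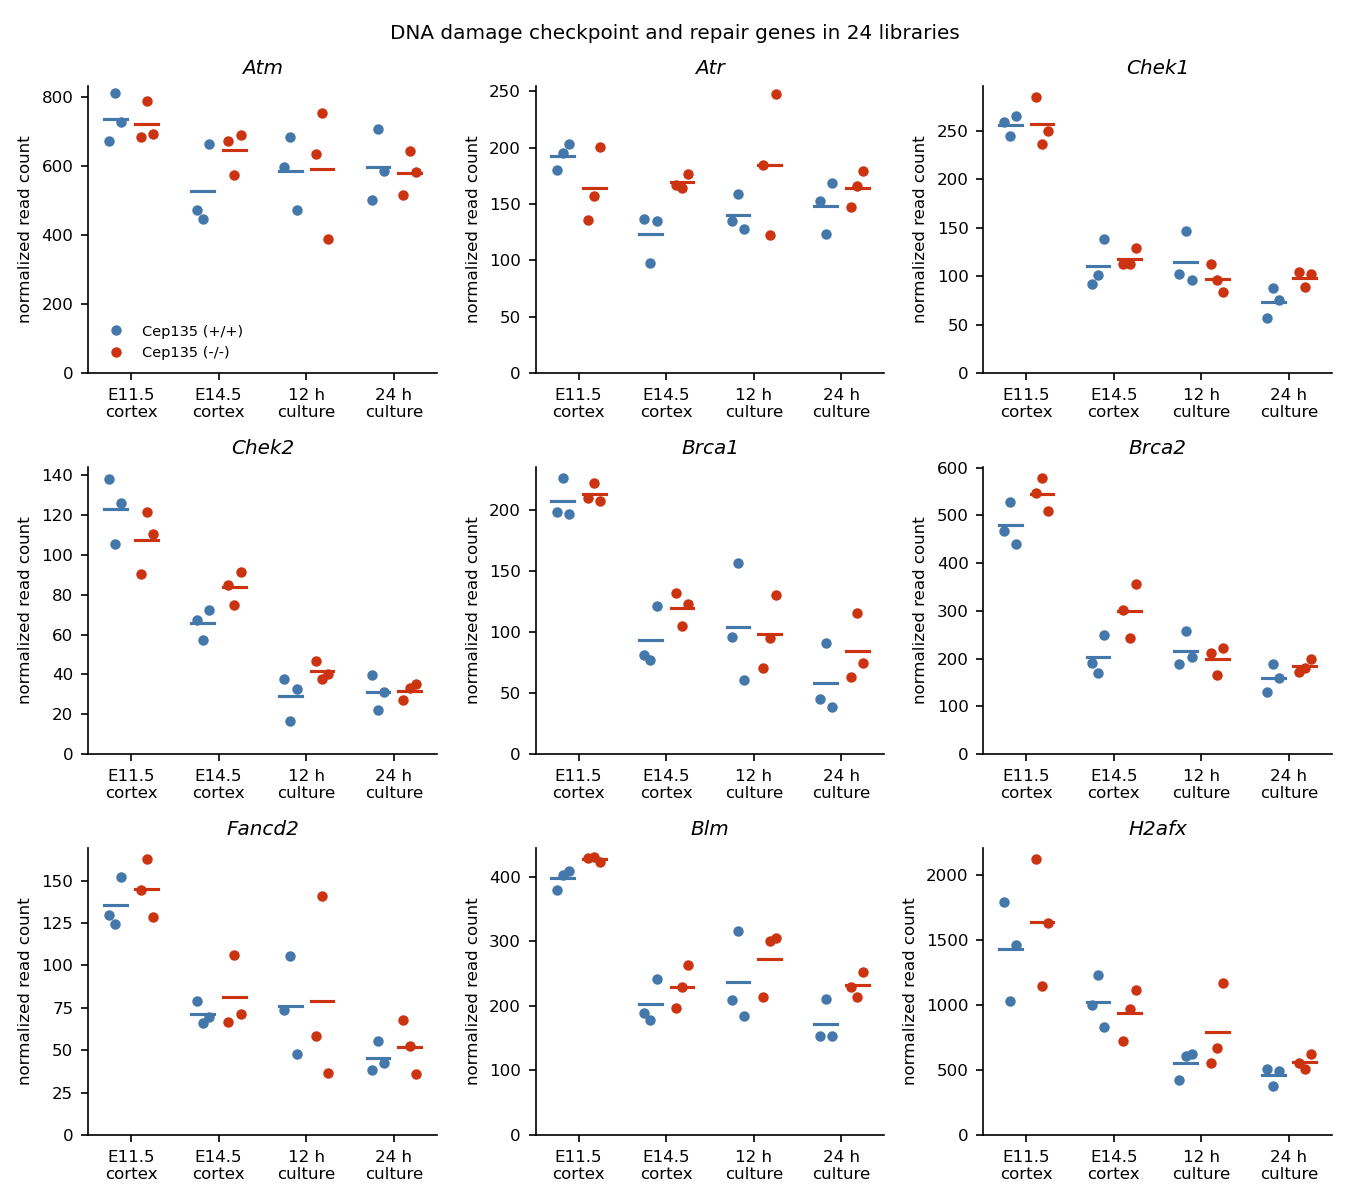
Normalized read counts (y axes, linear from 0) of the 9 genes in 24 libraries by age and culture time (x axes). Points are libraries, blue for *Cep135* (+/+) and red for *Cep135* (-/-), and bars are means of 3. *Chek1* lies at 236 to 285 in all E11.5 cortices and at 57.3 to 147 in every later library, while the ranges of *Atr* over both genotypes overlap between all 4 settings.

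The kinases that sense damage changed least. *Atm* (chr9:53439149-53536740, minus strand, GRCm38) had normalized read counts of 673, 811 and 729 in E11.5 controls and 686, 789.7 and 693 in E11.5 mutants. At E14.5 the controls had 473, 447 and 664 and the mutants 673, 574 and 689. The ranges overlapped only narrowly, and *Atm* fell by 0.33 (95% CI -0.57 to -0.10, adjusted p = 0.0181). This call was lost with edgeR on whole reads (adjusted p = 0.0605) and with all 24 libraries in one fit (adjusted p = 0.0567). *Atr* (chr9:95857597-95951781, plus strand) had 180.4, 195 and 203 in E11.5 controls and 136, 157 and 200.5 in E11.5 mutants. At E14.5 it had 136, 98.0 and 135 in controls and 167, 165 and 177 in mutants. The mean in controls at E14.5 was 63.9% of that at E11.5, and in mutants 103%. The change over both genotypes was -0.30 (95% CI -0.61 to 0.01, adjusted p = 0.101), and it passed without E11.5 mutant A (-0.39, adjusted p = 0.0271).

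The effector kinases fell more. *Chek1* (chr9:36708482-36727065, minus strand), which is needed to finish replication before mitosis, had 259, 245 and 265 in E11.5 controls and 285, 236 and 250.2 in E11.5 mutants. At E14.5 the values were 91.8, 101 and 139 in controls and 113, 113 and 129 in mutants. Every E14.5 value lay below every E11.5 value, and the change of -1.17 (95% CI -1.41 to -0.94, adjusted p = 2.65e-07) was the largest of the 9. *Chek2* (chr5:110839979-110874145, plus strand), which acts below ATM, had 138, 105 and 126 in E11.5 controls and 90.3, 122 and 110.3 in E11.5 mutants. In E14.5 cortices it had 67.1, 57.3 and 72.4 in controls and 84.7, 75.1 and 91.6 in mutants. Only the highest E14.5 mutant reached the lowest E11.5 value, and *Chek2* fell by 0.62 (95% CI -0.92 to -0.32, adjusted p = 0.00144).

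The recombination genes fell to about the same share of their E11.5 level. *Brca1* (chr11:101488764-101551955, minus strand), which starts resection of breaks, had 199, 226 and 197 in E11.5 controls and 209.6, 222 and 207 in E11.5 mutants. At E14.5 it had 81.2, 76.9 and 121 in controls and 132, 105 and 123 in mutants. The groups did not overlap, and the change was -1.0 (95% CI -1.27 to -0.73, adjusted p = 6.61e-06). *Brca2* (chr5:150522630-150570329, plus strand), which acts in the strand exchange step of recombination, had 468, 529 and 441 in E11.5 controls and 548, 579 and 509.8 in E11.5 mutants. At E14.5 it had 191, 171 and 248 in controls and 303, 243 and 356 in mutants. Again the ages did not overlap, and the change was -1.06 (95% CI -1.32 to -0.80, adjusted p = 2.12e-06). Within its span lies *Gm42531* on the same strand, so reads there could be lost to counting, as for *Gm24004* within *Atr*.

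*Fancd2* (chr6:113531682-113597017, plus strand) had 130.0, 125 and 152 in E11.5 controls and 144, 163 and 128 in E11.5 mutants. Its E14.5 values were 78.8, 66.1 and 69.7 in controls and 66.6, 106 and 71.3 in mutants. The ages did not overlap, and it fell by 0.88 (95% CI -1.16 to -0.61, adjusted p = 3.14e-05). *Blm* (chr7:80454733-80535119, minus strand) had 379.9, 403 and 409 in E11.5 controls and 429.6, 431 and 423 in E11.5 mutants. At E14.5 it had 189, 178 and 241 in controls and 196, 229 and 263 in mutants. It did not overlap either, and fell by 0.94 (95% CI -1.15 to -0.74, adjusted p = 7.17e-07). *H2afx* (chr9:44334694-44336077, plus strand) had 1792, 1034 and 1462 in E11.5 controls (embryos D, E and F) and 2119, 1149 and 1633 in E11.5 mutants (A, B and C). The highest value of each genotype came from embryos D and A, the only 2 with their label prefix. At E14.5 it had 999.9, 1229 and 833 in controls and 726, 969 and 1112 in mutants, so the ages overlapped, and it fell by 0.62 (95% CI -0.98 to -0.27, adjusted p = 0.00502).

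**Figure D2:**
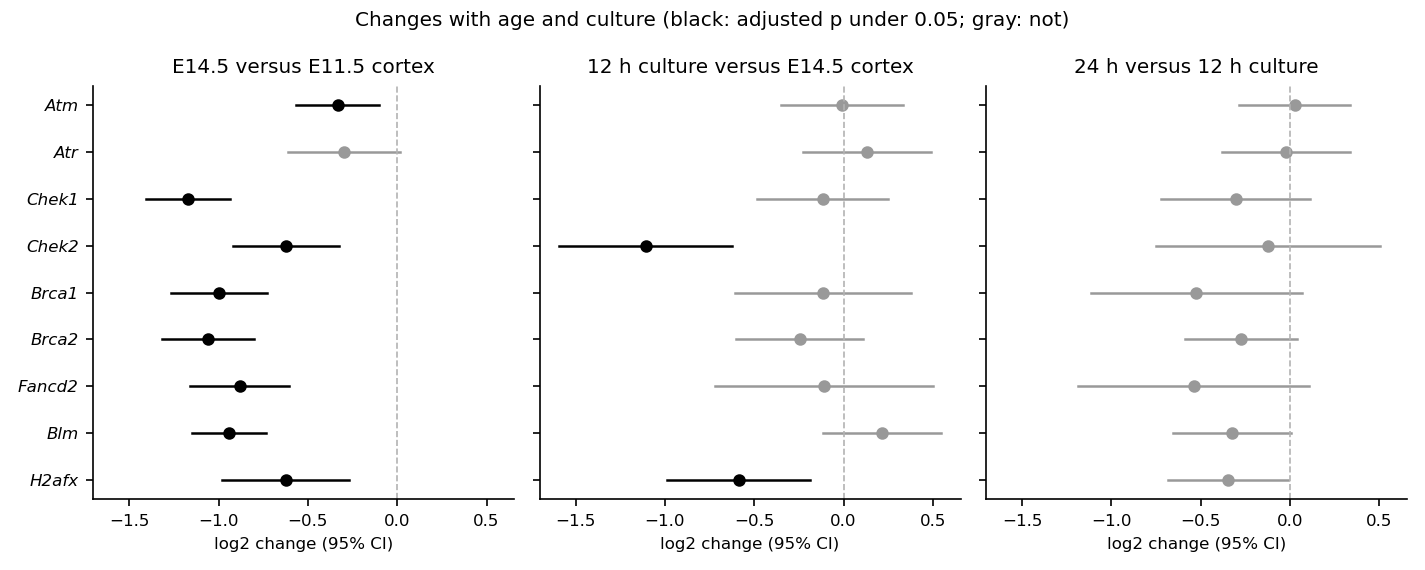
Log2 change of the 9 genes (x axes) between ages, between 12-hour culture and E14.5 cortex, and between culture times, 6 libraries in each arm. Points are estimates and lines 95% confidence intervals from limma, black where the adjusted p is under 0.05. In the first panel 8 genes are black and to the left of 0, in the second *Chek2* and *H2afx*, in the third none.

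The other genes of these pathways fell between the ages as well, in all lists but end joining. Of the checkpoint signalling partners, 12 of 14 fell and 0 rose (median -0.82), among them *Cdc25a*, the phosphatase that checkpoint kinases mark for destruction (-0.91), *Topbp1*, which activates ATR (-1.02), and *Timeless*, a fork protection gene (-1.01). Of the homologous recombination genes, 15 of 18 fell and 0 rose (median -0.85), such as *Exo1*, a resection nuclease (-1.48), and *Eme1*, a nuclease subunit (-1.43). In the Fanconi anemia list 9 of 13 fell (median -0.80), with *Fancc* at -1.20, *Fancl*, the ubiquitin ligase for FANCD2, at -1.17, and *Usp1*, which removes that ubiquitin, at -0.80. Of the Blm complex and RecQ helicases 6 of 7 fell, with *Recql4* at -1.10, *Wrn* at -0.65 and *Recql* at -0.63. In the list for break sensing, 6 of 9 fell, among them *Mdc1*, the reader of phosphorylated H2AX (-1.07), *Mre11a* (-0.74) and *Nbn* (-0.63), and 1 rose, *Trp53bp1*, which steers repair toward end joining (0.33).

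End joining, the repair path that needs no sister chromatid, was split, with 3 of 8 genes higher and 3 lower. *Xrcc4* (0.57), *Lig4* (0.41) and *Dclre1c* (0.53), which ligate or trim the ends, rose, while *Xrcc5* (-0.60), *Polq* (-0.66) and *Prkdc* (-0.49) fell. Of 14 p53 targets, 4 rose and 1 fell (median 0.00). Over the same libraries all 11 S phase genes fell (median -1.18), with *Ccne1* at -1.63, *Cdc6* at -1.34 and *Rrm2* at -2.05, and so did all 10 genes of G2 and mitosis (median -1.12). The summed S phase level was 11487 to 13705 normalized reads in E11.5 cortices and 5159 to 7163 at E14.5. All 8 markers of postmitotic neurons rose (median 1.79), their sum going from 8819 to 13207 at E11.5 to 29955 to 42242 at E14.5. Of the radial glia markers 6 of 8 fell and 2 rose (median -0.68), of meninges and mesenchyme 4 of 5 fell (median -1.49), of endothelium 4 of 6 fell (median -0.40), and of microglia 4 of 6 rose (median 0.57). The part of dividing cells and of these other cells in the fall of the 9 genes was not tested.

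**Figure D3:**
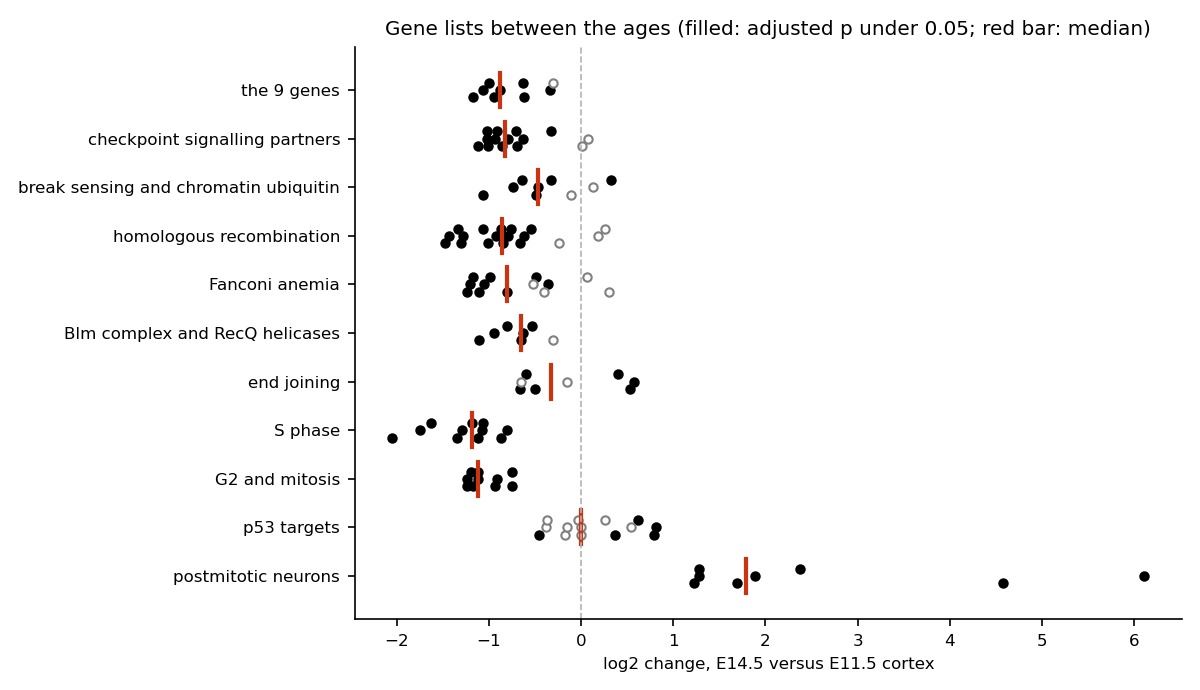
Log2 change between E14.5 and E11.5 cortex (x axis) of each gene in 11 lists (rows). Filled points passed the test (adjusted p under 0.05), open points did not, and red bars are medians. The repair lists center between -0.32 and -0.88 and the S phase list at -1.18, while p53 targets center at 0.00 and neuronal markers at 1.79.

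The next comparison asked what changes once E14.5 cortical cells are taken into culture. After 12 hours, 2 of the 9 genes, *Chek2* and *H2afx*, were lower than in the cortices they came from. The other 7 did not pass, with changes of -0.24 to 0.22, and the median was -0.12 against -0.06 for all genes tested. Over all genes 30.2% changed and 16.1% fell, so 2 of 9 is near the background. *Chek2* alone had no overlap between the 6 cortex and the 6 culture values, as had 14.4% of all genes.

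*Chek2* had 37.8, 16.4 and 32.6 normalized reads in 12-hour controls and 46.8, 37.9 and 40.3 in 12-hour mutants. All of these were below the lowest E14.5 cortex, at 57.3. The change was -1.11 (95% CI -1.60 to -0.62, adjusted p = 0.00193), with 14 reads behind the lowest value. *H2afx* had 426, 609 and 623 in 12-hour controls and 551, 666 and 1169 in 12-hour mutants. Only mutant 6 lay within the range of the cortices, 726 to 1229, and the change was -0.59 (95% CI -0.99 to -0.19, adjusted p = 0.0278). The call for *H2afx* was lost without cortex control 3, cortex control 4, cortex mutant 6, 12-hour control 3 or 12-hour mutant 1 (adjusted p of 0.0532 to 0.0735).

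The 7 genes that did not pass had wide ranges at 12 hours. *Atm* had 596, 686 and 473 in controls and 634, 754 and 389 in mutants. *Atr* had 135, 159 and 128 in controls and 184, 122 and 247 in mutants. For both, the lowest and highest culture values were from mutants, and the intervals of the change spanned 0 (-0.35 to 0.33 for *Atm*, -0.23 to 0.49 for *Atr*). *Chek1* had 102, 147 and 95.7 in controls and 112, 95.8 and 83.3 in mutants. *Brca1* had 96.0, 156 and 60.7 and 70.2, 94.7 and 129.9, and *Brca2* 189, 257 and 203 and 212, 165 and 221, in the same order. In these genes control 4 was the highest of the 3 controls, as it was for 7 of the 9 genes. *Fancd2* ranged most, with 73.9, 106 and 47.8 in controls and 58.5, 141 and 36.7 in mutants. *Blm* had 209, 316 and 184 in controls and 214, 299.9 and 305 in mutants. *Blm* and *Atr* were the genes with a positive change (0.22 and 0.13).

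Among the related lists, few genes passed and in both directions. Of the checkpoint partners 3 rose, *Cdc25a* (0.36), *Topbp1* (0.40) and *Atrip*, the partner that brings ATR to DNA (0.42), and 3 fell, *Wee1*, an inhibitor of mitotic entry (-0.76), *Tipin* (-0.50) and *Cdc25b* (-0.43). *Rbbp8*, which opens breaks for recombination, rose (0.63), as did *Rif1* (0.36), which opposes it. *Wrn* (-1.34), *Recql* (-0.53) and *Prkdc*, the catalytic kinase of end joining (-1.10), fell. Of the 12 Fanconi anemia genes tested, 0 passed. In the same comparison 10 of 14 p53 targets rose (median 0.88), among them *Cdkn1a*, which stops the cell cycle (1.41), *Aen* (1.22) and *Sesn2* (1.84). S phase genes fell in 5 of 11 (median -0.46) and genes of G2 and mitosis in 5 of 10 (median -0.50).

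Markers of other cell types differed as well. All 6 microglia markers, all 6 endothelial markers and all 5 markers of meninges and mesenchyme fell (medians -4.48, -4.31 and -3.67). The summed microglia level in normalized reads was 408 to 935 in E14.5 cortices and 6.31 to 42.5 at 12 hours, with *Aif1* at 0 in all 12-hour mutants. Erythroid markers rose in 8 of 9 (median 1.31), and of the radial glia markers 6 fell and 1, *Vim*, rose (0.88). *Gm42418*, an RNA gene with ribosomal sequence, took 9.78% to 15.0% of the normalized reads in E14.5 cortices and 10.7% to 34.8% at 12 hours. The part of these cells and of this RNA in the changes of *Chek2* and *H2afx* was not tested.

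Between 12 and 24 hours, 0 of the 9 genes passed the test (limma), against 0.292% of all genes, and 1 of the 9 had an unadjusted p under 0.05, as had 9.64% of all genes. Values of 8 of the 9 were lower at 24 hours, with a median of -0.30 against 0.02 for all genes. In 0 genes of the 9 did the times not overlap, and in 0.928% of all. The smallest p belonged to *H2afx* (-0.35, 95% CI -0.68 to -0.01, adjusted p = 0.511) and *Blm* (-0.32, 95% CI -0.66 to 0.01, adjusted p = 0.525). With the embryo as a replicate block, calls over all genes went from 39 to 104, and still 0 of the 9 passed. In the same libraries *Top2a*, of the 10 genes of G2 and mitosis, fell (-0.75), as did 3 of 9 erythroid markers, while 0 of 11 S phase genes passed.

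At 24 hours *H2afx* had 507, 376 and 495 in controls and 550.3, 508 and 623 in mutants. *Blm* had 153, 211 and 154 in controls and 229, 214 and 253 in mutants. In both, every mutant was above every control. *Chek1* had 57.3, 87.6 and 75.0 in controls and 105, 89.1 and 102 in mutants, again without overlap between genotypes. *Chek2* stayed near its 12-hour level, with 39.6, 21.9 and 31.3 in controls and 27.2, 33.4 and 34.9 in mutants. *Brca1* had 45.1, 91.0 and 38.8 in controls and 63.1, 115 and 74.2 in mutants. *Brca2* had 129.7, 189 and 159 in controls and 171, 181 and 199 in mutants. For these 3 genes the genotypes overlapped, and the highest value of each control group came from control 4 or, for *Chek2*, control 3. *Fancd2* had 38.2, 55.6 and 42.5 in controls and 68.1, 52.6 and 35.8 in mutants. *Atm* had 501, 708 and 586 in controls and 515, 643 and 584 in mutants, and *Atr* 153, 123 and 169 and 147, 166 and 179. The genotypes overlapped for all 3.

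The study's own question was what the loss of *Cep135* does, with attention to p53. None of the 9 genes passed the test between genotypes (limma) in E11.5 cortex, E14.5 cortex, 12-hour culture, 24-hour culture or the 12 cortices together, and 0 passed with edgeR or DESeq2 on whole reads. Unadjusted p under 0.05 were seen in 2 of the 9 at E14.5 (*Brca2* and *Atr*), 1 at 24 hours (*Blm*) and 1 over the 12 cortices (*Brca2*), where 9.1%, 10.6% and 8.71% of all genes had one. Few genes of any kind passed after adjustment: 0.0149% of those tested in E11.5 and 0.0736% in E14.5 cortex, 0% after 12 and 0.271% after 24 hours of culture, and 0.139% over the 12 cortices. *Cdkn1a*, a p53 target, was higher in mutants over the 12 cortices (0.99, adjusted p = 0.0152) and at 24 hours (1.02, adjusted p = 0.0109). In the 12 cortices 4 of 14 p53 targets were higher in mutants and 0 lower, the first 3 by p being *Eda2r* (2.28), *Ccng1* (0.82) and *Cdkn1a*.

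**Figure D4:**
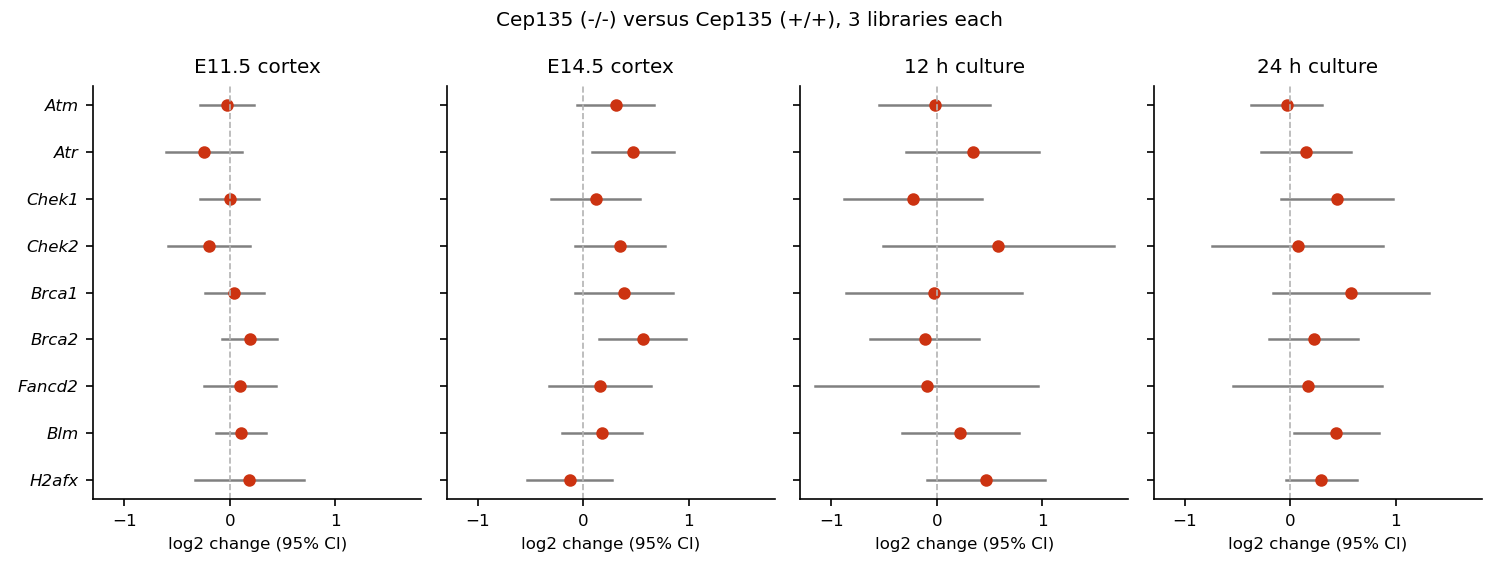
Log2 change of the 9 genes in mutants against controls (x axes) in 4 settings, 3 libraries of each genotype. Points are estimates and lines 95% confidence intervals from limma. All intervals of the E11.5 and 12-hour panels span 0, whereas *Atr* and *Brca2* at E14.5 and *Blm* at 24 hours lie to the right of 0 before adjustment.

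In E11.5 cortex the changes of the 9 genes ran from -0.24 to 0.19 with a median of 0.04, against 0.02 for all genes, and 6 were above 0. The smallest p belonged to *Brca2* (0.19, 95% CI -0.07 to 0.45, adjusted p = 0.723) and *Atr* (-0.24, 95% CI -0.60 to 0.12, adjusted p = 0.742). *Blm* was the 1 gene of the 9 whose groups did not overlap, with 423 to 431 in mutants and 379.9 to 409 in controls, a difference of 0.11, while 13.3% of all genes had groups apart. In these cortices 0 genes of the 9 had an unadjusted p under 0.05.

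In E14.5 cortex 8 of the 9 genes had higher means in mutants, with a median change of 0.31 against 0.01 for all genes. *Brca2* was 148% of the control mean (0.56, 95% CI 0.15 to 0.98, adjusted p = 0.471), with 1 mutant inside the control range. *Atr* was 138% of it (0.47, 95% CI 0.09 to 0.86, adjusted p = 0.507). For *Atr* and for *Chek2* (0.35) every mutant was above every control, and 13.7% of all genes had groups apart. These 2 genes gave an exact permutation p of 0.1, two-sided, which is the smallest that 3 against 3 allows. *H2afx* was the 1 gene with a lower mean in mutants (-0.13, 95% CI -0.53 to 0.28). The related lists had 0 calls. Homologous recombination genes were higher in 17 of 18 (median 0.27), checkpoint partners in 10 of 14 (0.14) and break sensing in 7 of 9 (0.26). Fanconi anemia genes were higher in 9 of 12 tested (0.16), and the Blm complex and RecQ helicases in 5 of 7 (0.04). End joining genes were higher in only 2 of 8 (median -0.05). S phase genes were higher in 9 of 11 (median 0.14) and genes of G2 and mitosis in 8 of 10 (0.24), with 0 calls. The S phase sum was 5159 to 5516 in controls and 6783 to 7163 in mutants. That of G2 and mitosis was 9380 to 11497 in controls and 12171 to 14986 in mutants. In the same libraries all 8 neuronal markers were lower (median -0.33; *Neurod6* passed) and all 6 microglia markers higher (median 0.96; *Cx3cr1* passed). Of the liver genes, all 6 tested were lower in mutants without a call (median -3.61), with sums of 65.9 to 953 in controls and 58.7 to 85.0 in mutants. The part of these cells and of dividing cells in these shifts was not tested. All E14.5 controls were male and 2 of the 3 mutants female.

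At 12 hours 4 of the 9 genes had log2 changes above 0 in mutants, and the median was -0.02. Neither was stable. Under other processing, without single libraries or with a term for sex, 3 to 8 genes were above 0 and the median ran from -0.16 to 0.40. The 0.40 came with the term for sex, where the genotype change rests on mutant 6, the only male mutant against male controls. Without that term (limma), the smallest p were those of *H2afx* (0.47, 95% CI -0.09 to 1.03, adjusted p = 0.913) and *Atr* (0.34, 95% CI -0.29 to 0.97, adjusted p = 0.916). *Chek2* alone had groups apart, by a margin of 37.9 against 37.8 normalized reads, as had 11% of all genes. Over all genes tested, 0 passed with limma or edgeR and 9 with DESeq2, while 650 had an unadjusted limma p under 0.05.

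At 24 hours 8 of the 9 genes had higher means in mutants, with a median of 0.22 against -0.01 for all genes. *Blm* was 134% of the control mean (0.44, 95% CI 0.03 to 0.84, adjusted p = 0.423), and *H2afx* 122% (0.30, 95% CI -0.04 to 0.63, adjusted p = 0.547). For *Chek1*, *Blm* and *H2afx* the groups did not overlap, each with an exact permutation p of 0.1, the smallest possible, while 16.2% of all genes had groups apart. S phase genes were higher in 10 of 11 (median 0.41) and genes of G2 and mitosis in 9 of 10 (median 0.34) in the same mutants, with 0 calls in either list. All 8 neuronal markers were lower there (median -0.26; *Neurod6* passed) and all 5 liver genes tested higher (median 4.14; *Alb* passed), with liver sums of 11.3 to 27.0 in controls and 94.6 to 325 in mutants. Radial glia markers were higher in 7 of 8 (median 0.43) and those of meninges and mesenchyme in 5 of 5 (median 1.03), with 0 calls. The libraries themselves differed by genotype: mutants held 7903426 to 11645213 reads on genes and controls 4732781 to 5709443, and *Gm42418* took 20.5% to 23.0% of the normalized reads in mutants and 6.26% to 13.9% in controls. The part of these cells, of depth and of this RNA in the values of the 9 genes was not tested. As in the cortices they came from, all controls were male, mutants 1 and 2 were female and mutant 6 was male.

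Over the 12 cortices, with age as a term, all 9 genes were above 0 (median 0.13 against 0.01). *Brca2* had the smallest p (0.38, 95% CI 0.12 to 0.63, adjusted p = 0.373), and an exact permutation test within age gave p = 0.02, two-sided, not adjusted, where 0.005 is the smallest possible. Next was *Brca1* (0.21, 95% CI -0.05 to 0.48, adjusted p = 0.654). *Brca2* and *Chek2* lie on the chromosome of *Cep135*, 73.9 and 34.2 Mb beyond its end.

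Interaction terms asked whether the genotype change differed between settings, and 0 of the 9 genes passed (limma), as did 0% of all genes between the ages, 0% between culture and cortex and 0% between culture times. Over all genes, 1070, 724 and 318 had an unadjusted p under 0.05 in these comparisons, edgeR passed 0, 1 and 0 genes and DESeq2 17, 5 and 0. Between the ages *Atr* had the smallest p, with a genotype change 0.72 higher at E14.5 than at E11.5 (95% CI 0.21 to 1.22, adjusted p = 0.620), followed by *Chek2* (0.55, 95% CI 0.01 to 1.08, adjusted p = 0.620). For *Atr* the means of mutants were 85.4% of the controls at E11.5 and 138% at E14.5. Between 12-hour culture and cortex it was *Brca2* (-0.68, 95% CI -1.31 to -0.04, adjusted p = 0.793), then *H2afx* (0.60, 95% CI -0.16 to 1.35). Between the culture times it was *Chek1* (0.67, 95% CI -0.13 to 1.46) and then *Brca2* (0.34, 95% CI -0.29 to 0.96), with 0 of the 9 under an unadjusted 0.05. Unadjusted p under 0.05 were thus seen in 2 of the 9 between ages and in 1 between culture and cortex, against 7.84% and 5.32% of all genes.

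The 9 genes did not vary as one. Over the 24 libraries, 26 of their 36 pairs had a Pearson correlation of log2 values above 0.5, with *Chek1* and *Brca2* highest (r = 0.95) and *Atr* and *Fancd2* lowest (r = -0.01). These correlations share the libraries and their size factors, and carry the difference between ages. With the mean of each of the 8 groups removed, 7 of the 36 were above 0.5 and the lowest, *Atm* with *H2afx*, was -0.67. The mean of the S phase list had r above 0.7 with 7 of the 9 genes, from 0.75 for *Fancd2* to 0.93 for *Brca2*, but 0.47 with *Atm* and 0.32 with *Atr*. With group means removed, *H2afx* had r = 0.85 with the genes of G2 and mitosis and 0.68 with S phase, while *Chek1* had -0.26 and -0.12. The r with S phase was then 0.08 for *Blm*, 0.01 for *Brca2*, -0.06 for *Chek2*, -0.16 for *Brca1* and -0.38 for *Fancd2*. For *Atm* it was -0.46 and for *Atr* 0.30. Most of the high r thus came from differences between the groups.

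The genes most like each of the 9 over the 24 libraries, among 13678 with a mean of at least 10, were named by the largest r. *Chek1* and *Brca2* shared *Pclaf* as first (r = 0.96 for each), the next for *Brca2* being *Kif15*, a mitotic kinesin, and *Aaas*, and for *Chek1* *Slc25a13* and *Zcchc3*. *Chek2* was most like *Pax6*, the transcription factor of radial glia (r = 0.95), *Ildr2* and *Lockd*. *Brca1* was most like *E2f5*, *Ttk* and *Eme1* (r of 0.92 to 0.93), *Fancd2* like *Mre11a*, *E2f8* and *Nelfe* (0.89 to 0.90), and *Blm* like *Tacc3*, *Tcf3* and *Pard3* (0.92 to 0.94). *H2afx* was most like *Tipin*, *Cks2* and *Srsf7* (0.96 for each). *Atm* had *Snw1*, *Phactr4* and *Spout1* (0.88 to 0.90), and *Atr* had no close match, its first being *Srsf2* at 0.68, then *Spata6* and *Gstcd* at 0.67.

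The spread among libraries also differed, taken here over both genotypes together unless a genotype is named. In the 6 E11.5 cortices the coefficient of variation was 6.68% for *Chek1*, 5.69% for *Brca1* and 4.73% for *Blm*, where counting error alone gives 5.75%, 6.34% and 4.53%. Within genotype *Blm* varied by 3.86% in controls and 0.923% in mutants. *H2afx* varied by 26.5% there, with a counting error of 2.41%. At 12 hours the coefficient of variation was 50.9% for *Fancd2*, 35.6% for *Brca1* and 38% for *H2afx*, against counting errors of 12.5%, 10.5% and 4.15%. In controls alone these 12-hour values were 38.2%, 46.3% and 19.9%, and in mutants alone 69.9%, 30.5% and 41.3%.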

How the data were processed

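RNA of 24 libraries was read by 3′ sequencing with oligo(dT) priming. The authors aligned reads to GRCm38 with TopHat (Bowtie 1.0.0, SAMtools 0.1.19), counted them per gene and strand with HTSeq-count 0.6.1, and deposited 1 table of signal, the counts of each gene divided by 1 size factor per library. Dividing each of the 484666 nonzero values by what 1 read is worth in its library gave a whole number (within 1e-06), and such reads served edgeR 4.0.16 and DESeq2 1.42.0 as alternatives. In E11.5 control D the value of 1 read is close to 1.

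Normalized read counts were log2-transformed after adding 1, genes averaging under 10 across the compared libraries were dropped, and limma-trend 3.58.1 (R 4.3.3) was fitted, adjusting p by Benjamini-Hochberg over all remaining genes (threshold 0.05). All changes are on that log2 scale, which understates those of low genes, and standard errors pool only the groups compared. Single genes in genotype comparisons were tested by exact permutation. The scripts were tested on simulated data.

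The 9 genes and the other lists were chosen with earlier results of these data known. All 9 are given by their values in every library. Their changes are given in full where at least 1 passed, and elsewhere as the median, range and the 2 with the smallest p. Of other lists, up to 3 genes in each direction with the smallest p are named. One gene that this rule selects is not reported here. Further changes of the 9 were named after their values were seen.

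The 6 E14.5 embryos each gave 3 libraries, and their pairing comes from the labels: deviations from group means of same-numbered libraries had correlations of -0.11 to 0.24 (median 0.14, 12 of 18 above 0.1). Libraries of 1 group differed by more than sampling noise in every pair (chi-square per gene of 6.63 or more). One E14.5 mutant, 6, was described in its labels also as E11.5, and its title was followed. Positions are from GENCODE vM21, sex from *Xist* and Y-linked transcripts.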

Additional observations from a re-analysis of the deposited data

How the results depend on the processing

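The 9 genes were retested under other pseudocounts (0.1, 5), filters (none, a mean of 50), scalings (median of ratios, quantile), tools (edgeR, DESeq2), a fit of all 24 libraries, a threshold of 0.1, a litter block, a term for sex, and without each library. In the genotype comparisons, the interactions and the culture times, 0 of the 9 passed under any of these. In E14.5 cortex the smallest adjusted p was 0.0863 (limma, without control 5), where calls over all genes went from 10 to 74. All controls of E14.5 origin were male. With the term for sex, the genotype change at E14.5 and in culture thus rests on mutant 6, the only male mutant there. In that fit *H2afx* was 1.10 higher at 12 hours. Over all alternatives the calls over all genes ranged from 0 to 34 at E11.5 (2 as reported), 4 to 182 at 24 hours (36) 6 to 94 in the 12 cortices (19) and 19 to 160 between culture times (39), with DESeq2 at the upper end of each. Between the ages the median of the 9 stayed between -0.95 and -0.82. Between genotypes it ran from 0.20 to 0.42 at E14.5, from -0.16 to 0.40 at 12 hours and from 0.21 to 0.34 at 24 hours. These ranges include the fits with the term for sex. With the embryo as a replicate block, the 2 calls between 12 hours and cortex were 2 as well and no other call on the 9 changed. For that comparison, leaving out 1 library gave 1 to 2 calls. The sign of 3 genes near 0 turned there: *Atm* to 0.0222 with edgeR and 0.0182 with DESeq2, and *Fancd2* to 0.0268 with edgeR, 0.0236 with DESeq2 and 0.0222 with quantile scaling. Leaving out 1 library, *Atm* ranged from -0.0822 to 0.131, *Brca1* from -0.292 to 0.00787 and *Fancd2* from -0.332 to 0.0927. The cause was not tested. Depth limits *Chek2* most, with 13 reads in its lowest library.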

Other observations

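In the 3 controls of E14.5 origin, the library with the most extreme values changed between tissue and culture. In cortex, control 4 held the lowest value of 7 of the 9 genes and control 5 the highest of 6. After 12 hours in culture control 4 held the highest of 7 and control 5 the lowest of 6, and after 24 hours control 4 again held the highest of 6. *Gm42418* took 34.8% of the normalized reads in control 4 and 10.7% in control 5 at 12 hours. At 24 hours these shares were 13.9% and 6.26%, and in cortex 11.6% and 9.78%. The part of this RNA was not tested. Among mutants, embryo 6 held the highest value of 7 genes in cortex and of 5 at each culture time. With 3 embryos a genotype these are values only.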
